A study of Mus musculus with 11 samples.

Results

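The 10 genes described here belong to the tumour necrosis factor (TNF) and NF-kB response. They are the TNF receptors Tnfrsf1a and Tnfrsf1b, the ligand gene Tnf, the NF-kB subunit genes Nfkb1, Nfkb2 and Relb, the feedback genes Nfkbia, Tnfaip3 and Birc3, and the chemokine gene Cxcl2. They were taken by symbol from a table of 55291 genes, and all 10 were found and passed the filter on low counts. Their counts ran from 12 (Cxcl2 in 1 wild-type library) to 20493 (Tnfaip3 in Tg replicate 2). The samples were bone marrow cells of C57BL/6 mice, sorted as Lin-cKit+Sca-1+ (LSK), a gate that takes in stem cells and multipotent progenitors. RNA of individual mice gave 4 wild-type (WT) libraries, 3 from Phf6 knockout mice (KO) and 4 from mice carrying Phf6R274X Tg, a form of the gene with a premature stop codon. The groups carried no further allele or agent in the labels. The making of the knockout, the promoter of the transgene, and age and sex of the mice were not given in the sources used here. No library was from cells given TNF, so the values are those of cells as sorted.

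TNF signals to blood stem cells through a pair of receptors, and much of the response runs through the transcription factor NF-kB. In resting cells NF-kB dimers are held by inhibitor proteins of the IkB family. TNF triggers the ubiquitin-dependent activation of kinases that destroy these inhibitors, and the freed dimers switch on inflammatory genes together with genes that end the response, such as those for a new IkB and for ubiquitin-editing enzymes. Loss of Phf6, an X-linked chromatin protein mutated in human leukaemias, is known to alter how haematopoietic stem cells respond to TNF.

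Library totals ran from 20990446 to 45632018 counts, and levels are given as CPM, counts divided by library size on a common scale, adjusted between libraries by the TMM method. Phf6 itself held 109.9 to 141.9 CPM in WT, 15.4 to 23.96 in KO and 182.6 to 277.7 in Tg, a log2 fold change of -2.64 in KO (adjusted p = 0.000352, edgeR) and 0.86 in Tg (adjusted p = 0.0176) against WT. The LSK markers Kit (579 to 884 CPM) and Cd34 (550.2 to 930.2 CPM) were high in every library. The sum of 12 neutrophil markers ran from 29.1 to 126 CPM in WT, 50.5 to 82.9 in KO and 65 to 622 in Tg. Of these markers 1 was called higher in Tg than in WT, against 2.54% of all genes. S100a8 reached 472.9 CPM in Tg, although Ly6g stayed at 0.40 CPM or less. Among 11 T and NK cell markers Cd3e stayed at 2.00 CPM or less, while Lck reached 36.6 CPM and Nkg7 247.6 CPM. The sum of 10 B cell markers ran from 341 to 4920 CPM in WT, 1370 to 6190 in KO and 201 to 286 in Tg. Xist, which marks female cells, lay between 32.6 and 54.2 CPM in all WT and KO libraries and at 0.324 CPM or less in all Tg libraries, so the Tg genotype and this sex difference cannot be told apart. In 5 libraries (WT replicates 1, 2 and 4 and KO replicates 1 and 2) Xist and Y-linked genes both exceeded 1 CPM, although the labels describe RNA of individual mice. Results without these 5 libraries are given after the counts of calls.

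Before the transcription start of 3 of the feedback and target genes lie matches to the sequence that NF-kB binds. The 150 bases before the start of Nfkbia, Tnfaip3 and Cxcl2 are shown because the levels of these genes were among those that went together most closely. They run 5′ to 3′ on the strand of the gene, come from RefSeq (GRCm38.p6), and have matches to the NF-kB consensus on either strand in capitals.
Nfkbia, chr12:55492648-55492797, minus strand: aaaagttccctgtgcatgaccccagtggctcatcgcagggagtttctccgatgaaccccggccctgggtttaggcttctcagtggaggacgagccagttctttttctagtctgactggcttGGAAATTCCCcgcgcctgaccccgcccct
Tnfaip3, chr10:19015411-19015560, minus strand: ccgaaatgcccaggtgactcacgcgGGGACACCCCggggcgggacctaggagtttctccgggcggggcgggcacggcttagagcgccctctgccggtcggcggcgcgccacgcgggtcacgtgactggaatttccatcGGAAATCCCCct
Cxcl2, chr5:90903749-90903898, plus strand: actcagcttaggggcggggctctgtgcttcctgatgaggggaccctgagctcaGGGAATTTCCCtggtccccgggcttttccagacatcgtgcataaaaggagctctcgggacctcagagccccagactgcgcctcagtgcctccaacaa

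The match began 29 bases before the start in Nfkbia, 125 and 12 bases before it in Tnfaip3, and 97 bases before it in Cxcl2, where a second match on the other strand overlaps the first. RefSeq places the starts of Tnfaip3 and Cxcl2 inside the genes as GENCODE draws them, at 19015410 and 90903899. In windows of 250 bases before to 50 after the start, 4.51% of 32851 annotated starts held a match. RefSeq windows were found for 8 of the 10 genes, and those of 4 of them held a match, the fourth being Nfkb2. The windows of Tnfrsf1a, Tnfrsf1b, Tnf and Birc3 held no match to these letters, Nfkb1 and Relb had no entry, and the window of a second start of Tnfaip3 held no match. A match is a description of the letters and no evidence of binding in these cells.

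Per kilobase of annotated exon, Nfkbia was the most abundant of the 10 in every genotype, with an RPKM (CPM per kilobase) of 85.4 ± 33.2 for WT (mean ± SD of n = 4), 84.3 ± 13.5 for KO (of n = 3) and 86.3 ± 44.3 for Tg (of n = 4). In WT it was followed by Tnfaip3 at 54.8 ± 28.5, Tnfrsf1a at 36.4 ± 6.95, Nfkb1 at 21.8 ± 1.05 and Tnfrsf1b at 19.5 ± 1.83 RPKM. Birc3 (11.4 ± 1.39), Tnf (11 ± 3.12), Nfkb2 (8.74 ± 2.58), Relb (3.34 ± 0.625) and Cxcl2 (2.79 ± 3.27) completed the WT order. Neighbours in that order overlapped in range except at the steps from Tnfrsf1a to Nfkb1, from Tnfrsf1b to Birc3 and from Nfkb2 to Relb. The exon length is the union over all annotated transcripts, which lowers the value of a gene with long rare exons. For Cxcl2 the union is 1 stretch of 2068 bases that covers the whole gene, so any intron is counted as exon there. Exons of Nfkb2 overlap antisense genes over 11.6% (AC114539.1) and 6.52% (Psd) of their length, and the strand setting of the counting is not given, so reads there cannot be assigned with certainty. No exon of the other 9 genes overlapped another gene.

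**Figure D1:**
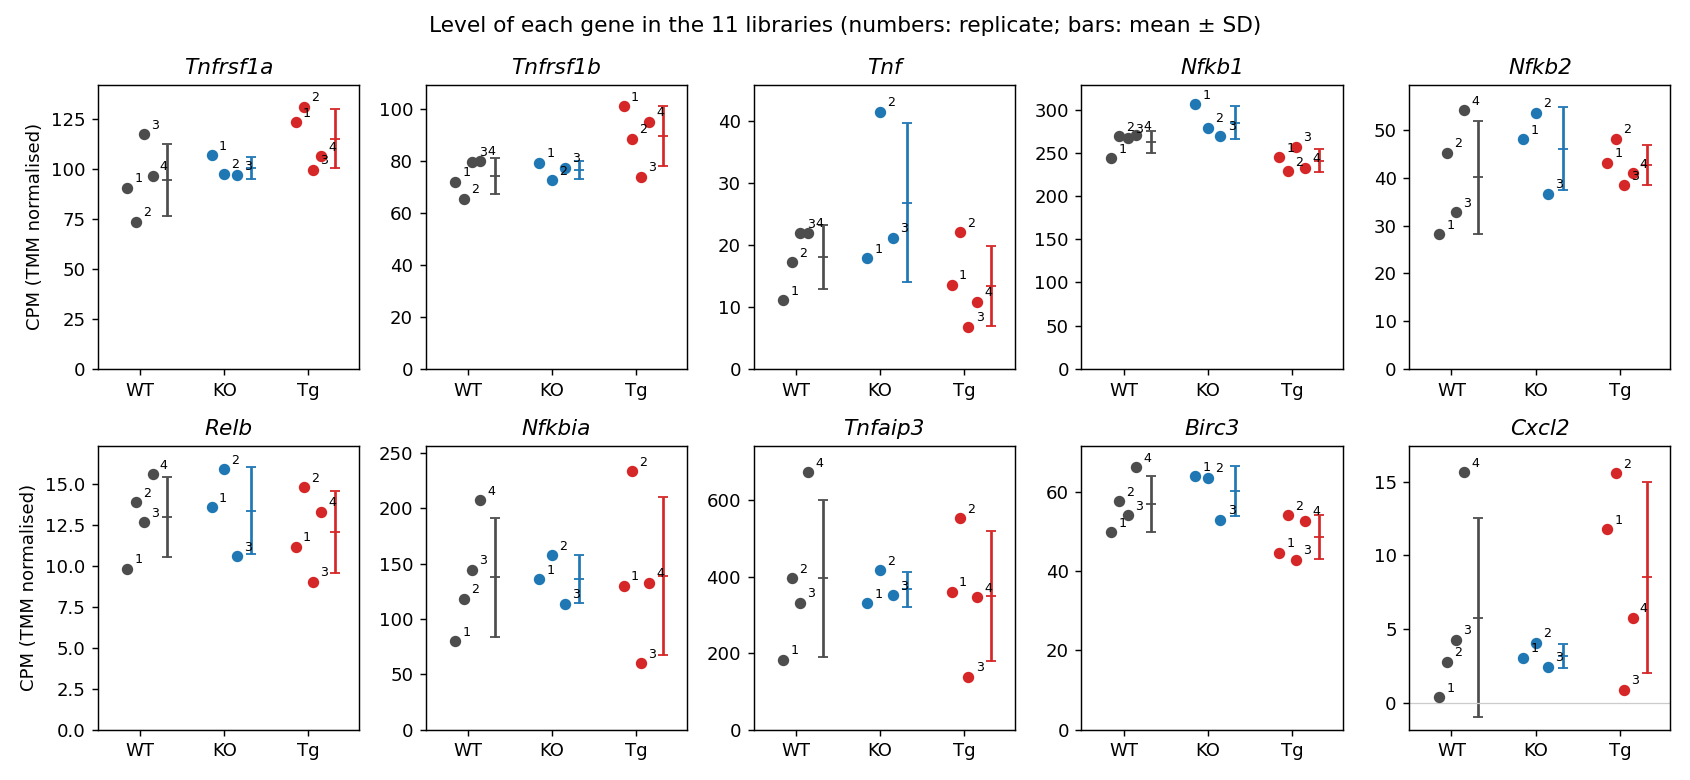
Level of each of the 10 genes (vertical axes, CPM, TMM normalised) in WT, KO and Tg libraries. Points are libraries numbered by replicate and bars are the mean ± SD. The receptors and Nfkb1 lie in narrow bands, while Nfkbia, Tnfaip3 and Cxcl2 spread widely within WT and within Tg.

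Both receptor genes were well above background in LSK cells and differed little between genotypes. Tnfrsf1a, on chromosome 6 from 125349362 to 125362484, encodes the death-domain receptor that most cells carry. It held 90.4, 73.5, 117.1 and 96.5 CPM in WT replicates 1 to 4, 106.6, 97.4 and 96.8 in KO, and 123.3, 130.9, 99.5 and 106.3 in Tg. The Tg libraries were the upper part of one continuous range, and WT replicate 3 exceeded 2 of them. Fitted with edgeR, the log2 fold change of Tnfrsf1a was 0.09 in KO against WT (SE 0.142, adjusted p = 0.934) and 0.28 in Tg against WT (SE 0.131, adjusted p = 0.231).

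Tnfrsf1b, on chromosome 4 from 145213463 to 145246870, encodes the receptor without a death domain, found largely on blood and endothelial cells. In WT it stood at 72.0, 65.5, 79.7 and 80.1 CPM, in KO at 79.3, 72.6 and 77.4, and in Tg at 101.0, 88.6, 74.0 and 95.1. Of the Tg libraries 3 lay above every WT and KO library, and replicate 3 lay within their range. The log2 fold change of Tnfrsf1b in Tg against WT was 0.27 (SE 0.0997, adjusted p = 0.138; unadjusted p = 0.0192), and without Tg replicate 3 it was 0.35 and passed (adjusted p = 0.0367). In KO against WT the difference was 0.04, with a 95% interval from -0.20 to 0.28, that is 0.873- to 1.21-fold.

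Tnf, the ligand gene, lies on chromosome 17 from 35199381 to 35202007 and was transcribed in every library. It held 11.1, 17.2, 21.9 and 22.0 CPM in WT, 17.8, 41.5 and 21.2 in KO, and 13.6, 22.1, 6.79 and 10.8 in Tg. KO replicate 2 stood above all other libraries and Tg replicate 3 below them, while the remaining values of the 3 genotypes overlapped. The log2 fold change was 0.57 in KO against WT (SE 0.391, adjusted p = 0.805), -0.43 in Tg against WT (SE 0.367, adjusted p = 0.536) and -1.01 in Tg against KO (SE 0.391, adjusted p = 0.159; unadjusted p = 0.0253). Without KO replicate 2 the last value was -0.54 (adjusted p = 0.555). That library also had the highest sums of B cell markers, 6190 CPM, and of 16 macrophage and monocyte markers, 818 CPM. By genotype the macrophage and monocyte sum ran from 280 to 533 CPM in WT, 499 to 818 in KO and 268 to 395 in Tg. In Tg against KO 13 of the 14 of these markers tested lay lower, 3 of them called, against 3.06% of all genes called lower. Among the macrophage genes KO replicate 2 had the highest Ccr2 (391.7 CPM), C1qb (19.0 CPM), Cd68 (18.5 CPM) and Adgre1 (11.1 CPM) of all 11 libraries. It also held 40 counts of Vsig4, against 0 or 1 elsewhere, while Marco had at most 1 count in any library. The others peaked elsewhere, C1qa, C1qc and Cd5l in WT replicate 2 and Mrc1, Vcam1 and Spic in WT replicate 1. Csf1r, Cx3cr1, Ly86 and Lyz2 were highest in KO replicate 3. The part of these markers in the Tnf value was not tested. In sorted bulk RNA fewer cells of a type and less RNA per cell cannot be told apart.

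Nfkb1, on chromosome 3 from 135584655 to 135691547, encodes the precursor of the most common DNA-binding partner of RelA. It held 243.7, 269.3, 266.8 and 270.5 CPM in WT, 306.1, 279.3 and 269.7 in KO, and 245, 228.7, 257.3 and 232.9 in Tg. The KO libraries included the highest values and the Tg libraries the lowest, and these 2 groups did not overlap. The log2 fold change of Nfkb1 was -0.24 in Tg against KO (SE 0.0743, adjusted p = 0.0821; unadjusted p = 0.00724), which edgeR did not call and DESeq2 did (-0.24, adjusted p = 0.0233). Against WT it was 0.12 in KO (SE 0.0744, adjusted p = 0.786) and -0.12 in Tg (SE 0.0691, adjusted p = 0.326).

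Nfkb2 (chromosome 19, 46304320 to 46312385) and Relb (chromosome 7, 19606217 to 19629438) encode the partners of the non-canonical NF-kB pathway, which receptors such as the lymphotoxin receptor and CD40 activate. Nfkb2 held 28.1, 45.2, 32.8 and 54.2 CPM in WT, 48.0, 53.6 and 36.6 in KO and 43.1, 48.1, 38.4 and 40.9 in Tg. Relb held 9.82, 13.9, 12.7 and 15.6 CPM in WT, 13.6, 15.9 and 10.6 in KO and 11.2, 14.8, 9.03 and 13.3 in Tg. In both genes each genotype spanned much of the range of the others. Across the 3 contrasts their log2 fold changes lay between -0.14 and 0.20, with adjusted p values of at least 0.751 in edgeR.

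Nfkbia, on chromosome 12 from 55489410 to 55492647, encodes IkB-alpha, the inhibitor that NF-kB itself re-supplies. Its levels were 80.0, 118.1, 144.6 and 207.1 CPM in WT, 135.9, 157.4 and 113.9 in KO, and 129.8, 233.3, 60.1 and 132.6 in Tg. The highest and the lowest of all 11 values were both in Tg, in replicates 2 and 3, which differed 3.88-fold. The genotype means were nearly equal, with log2 fold changes of -0.02 in KO against WT (SE 0.387) and 0.02 in Tg against WT (SE 0.358), and the 95% intervals ran from -0.86 to 0.83 and from -0.77 to 0.80. These intervals hold the changes that remain compatible with the values, and they are not a limit of detection after adjustment.

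Tnfaip3, on chromosome 10 from 19000910 to 19015657, encodes a ubiquitin-editing enzyme that shuts off signalling at the receptor. It held 182.5, 395.3, 331.4 and 673.6 CPM in WT, 331.0, 416.7 and 352.1 in KO, and 360.2, 552.7, 138.1 and 346.2 in Tg. WT replicate 4 was the highest and Tg replicate 3 the lowest of all libraries. Within WT the extremes differed 3.69-fold and within Tg 4.00-fold, against 1.26-fold among the 3 KO libraries. Whether the spread itself differs between genotypes was not tested. The log2 fold change of Tnfaip3 was -0.11 in KO (SE 0.437, adjusted p = 0.979) and -0.18 in Tg (SE 0.404, adjusted p = 0.841), each against WT, and turned to 0.27 and 0.20 without WT replicate 4.

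Birc3, on chromosome 9 from 7848699 to 7873186, encodes a ubiquitin ligase of the TNF receptor complex that protects cells from death. It held 49.8, 57.8, 54.1 and 66.3 CPM in WT, 64.0, 63.7 and 53.1 in KO, and 44.7, 54.1, 42.9 and 52.8 in Tg. The lowest values were in Tg, but Tg replicate 2 lay above KO replicate 3. The log2 fold change of Birc3 was -0.31 in Tg against KO (SE 0.119, adjusted p = 0.153; unadjusted p = 0.0236), -0.23 in Tg against WT (SE 0.111, adjusted p = 0.256) and 0.08 in KO against WT (SE 0.119, adjusted p = 0.92).

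Cxcl2, on chromosome 5 from 90903871 to 90905938, encodes a chemokine that attracts neutrophils and is a classical NF-kB target. It was the lowest of the 10 in CPM and by far the most variable, with 0.381, 2.80, 4.28 and 15.6 CPM in WT, 3.06, 4.08 and 2.45 in KO, and 11.8, 15.6, 0.886 and 5.78 in Tg. WT replicate 1, the lowest, rested on 12 counts and lay 41.0-fold below WT replicate 4. The log2 fold change of Cxcl2 was -0.84 in KO against WT (SE 0.99), 0.58 in Tg against WT (SE 0.892) and 1.41 in Tg against KO (SE 1, adjusted p = 0.465). Without WT replicate 4 the KO value was 0.36 and the Tg value 1.77, and none of these passed. The summed neutrophil markers were 99.2, 33.6, 29.1 and 126 CPM in WT and 50.5, 66.7 and 82.9 in KO. In Tg they were 622, 360, 65 and 328 CPM, of which S100a8 alone held 472.9, 244.3, 27.6 and 199.5. Tg replicate 3 was the lowest Tg library in this sum as in Cxcl2. In WT the library lowest in Cxcl2, replicate 1, was not the lowest in the sum. In KO the library lowest in Cxcl2, replicate 3, was the highest in the sum. The part of these markers in the Cxcl2 value was not tested.

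**Figure D2:**
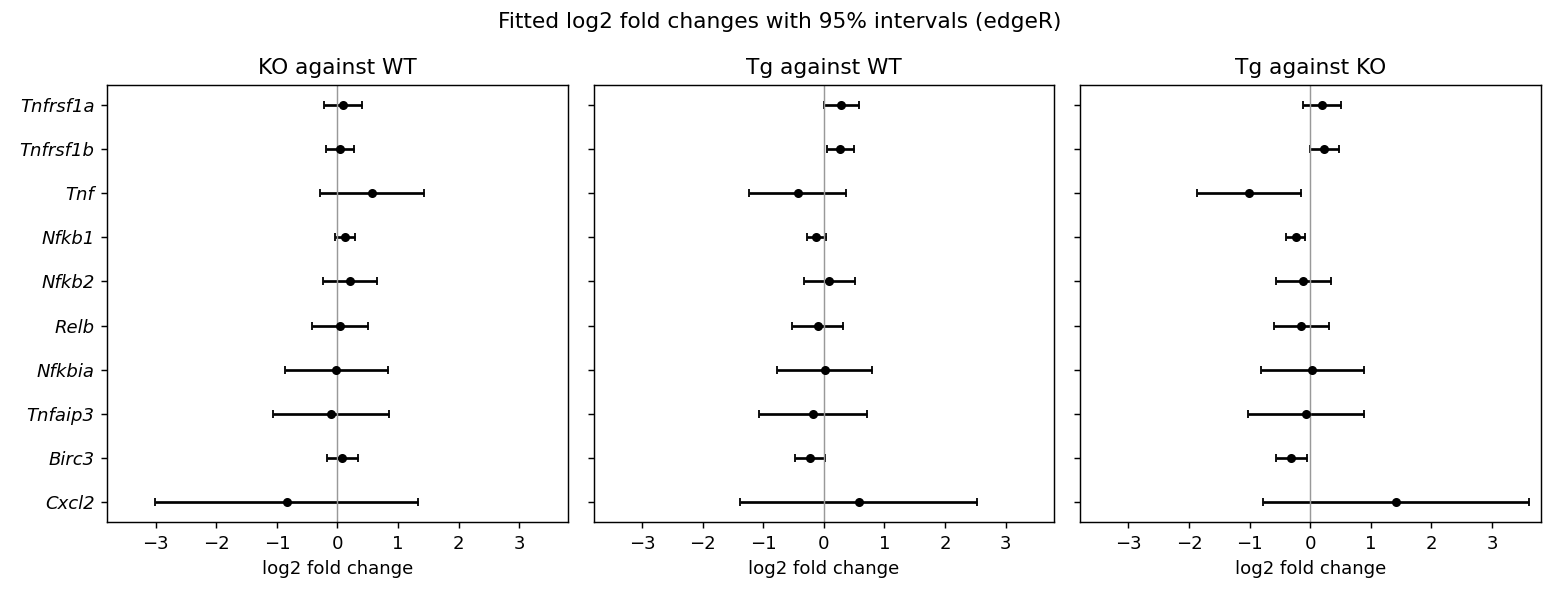
Fitted log2 fold changes (horizontal axes) of the 10 genes in KO against WT, Tg against WT and Tg against KO, with 95% intervals. The intervals are narrow for Nfkb1 and the receptors and widest for Cxcl2, whose KO against WT interval runs from -3.00 to 1.33.

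Counted over the 10 genes, edgeR called 0 in KO against WT, where 0.0233% of 17183 genes tested were called. None had an unadjusted p under 0.05, against 7.08% of all genes. DESeq2 called 0, against 0.576% of all genes, limma-voom 0, against 0.00582%, and in none did the groups separate, against 7.5% of all genes. In Tg against WT edgeR also called 0, against 4.92% of all genes; 1 gene (Tnfrsf1b) had an unadjusted p under 0.05, against 22.1%. DESeq2 called 0, against 11.1% of all genes, limma-voom 0, against 3.72%, and no gene separated the groups, against 9.85%. In Tg against KO edgeR called 0, against 5.69% of all genes, while Tnf, Nfkb1 and Birc3 had an unadjusted p under 0.05, against 21.6%. DESeq2 called 1 (Nfkb1), against 11.2% of all genes, and limma-voom 0, against 4.91%. The groups separated in that contrast for Nfkb1 alone, which was lower in Tg, against 20.8% of all genes (11% lower). The median log2 fold change of the 10 genes was 0.06, -0.04 and -0.09 in the 3 contrasts, beside -0.005, 0.005 and 0.013 over all genes. Each pair of these contrasts shares a group of libraries.

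Without the 5 libraries that held Xist together with Y-linked reads, which left 1 WT, 1 KO and 4 Tg libraries, edgeR called 0 of the 10 genes in every contrast, and the lone libraries were assumed to vary like the Tg group. Of the 30 log2 fold changes 11 changed sign. In Tg against KO, Nfkb1 was then at -0.16 (SE 0.139, adjusted p = 0.823), Tnf at -0.67 (SE 0.497, adjusted p = 0.781) and Birc3 at -0.13 (SE 0.174, adjusted p = 0.912). Tnfrsf1b in Tg against WT was at 0.18 (SE 0.182, adjusted p = 0.816).

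What set the 10 genes apart from one another was how much they varied between mice of a single genotype. The biological coefficient of variation, edgeR's estimate of the relative spread between replicates beyond counting error, was 0.0893 for Nfkb1, lower than for all but 3.1% of the genes tested. It was 0.114 for Tnfrsf1b, 0.125 for Birc3 and 0.142 for Tnfrsf1a, all below the common value of 0.272. Nfkbia (0.352), Tnf (0.367), Tnfaip3 (0.394) and Cxcl2 (0.842) lay above it, and the value of Cxcl2 exceeded that of 96.5% of genes. Relb (0.214) and Nfkb2 (0.199) lay between these groups. No test was made of these values.

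**Figure D3:**
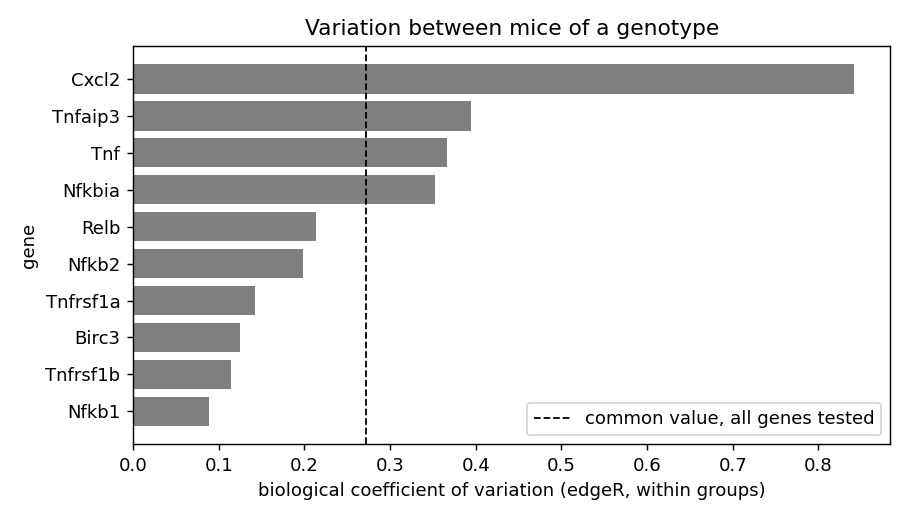
Biological coefficient of variation between mice of a genotype (horizontal axis, edgeR) for the 10 genes, with the common value over all genes tested, 0.272, as a dashed line. Cxcl2, Tnfaip3, Tnf and Nfkbia lie above the line and the other 6 below it.

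Of the 4 most variable genes, Nfkbia, Tnfaip3 and Cxcl2 moved together from library to library. Over the 11 libraries the log2 levels of Nfkbia and Tnfaip3 had a Pearson r of 0.95 (permutation p = 0.00014, adjusted p = 0.0033 over 45 pairs) and a Spearman rho of 0.71 (permutation p = 0.018, adjusted p = 0.054), with r = 0.91 without the 2 libraries farthest from the median. For Nfkbia and Cxcl2 r was 0.87 (permutation p = 0.00062, adjusted p = 0.007) and rho 0.83 (adjusted p = 0.03), and r was 0.86 without the 2 farthest. Tnfaip3 and Cxcl2 gave r = 0.87 (permutation p = 0.00087, adjusted p = 0.0078) and rho = 0.72 (adjusted p = 0.054), with r = 0.71 without the 2 farthest. Measured as deviations from each genotype's mean, these 3 pairs had r between 0.93 and 0.96, and Relb and Birc3 had 0.94.

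For Tnf, the fourth, r was 0.73 to Nfkbia (permutation p = 0.012, adjusted p = 0.049; rho 0.81, adjusted p = 0.03) and 0.73 to Tnfaip3 (permutation p = 0.013, adjusted p = 0.049; rho 0.72, adjusted p = 0.054), or 0.64 and 0.65 without the 2 farthest. Tnf and Cxcl2 did not pass (r = 0.46, permutation p = 0.15, adjusted p = 0.27; rho 0.48, adjusted p = 0.26). Relb followed the same libraries as Nfkbia, with r = 0.87 (permutation p = 0.00017, adjusted p = 0.0033; rho 0.85, adjusted p = 0.03) and 0.68 without the 2 farthest. It was similarly close to Tnfaip3 (r = 0.86, adjusted p = 0.0033, and 0.63 without the 2 farthest). With Birc3 it had r = 0.83 (adjusted p = 0.011, and 0.75 without the 2 farthest). Nfkb2 and Relb had r = 0.77 (adjusted p = 0.033) and rho = 0.87 (adjusted p = 0.03), with r = 0.87 without the 2 farthest. The receptors tracked each other (r = 0.80, permutation p = 0.0028, adjusted p = 0.018; rho 0.75, adjusted p = 0.05), with r = 0.74 without the 2 farthest. Nfkb1 went with none of the others, its 9 pairs lying between -0.50 and 0.59 with no adjusted p under 0.05. In all, 12 of the 45 pairs had an adjusted p under 0.05 for Pearson's r. All levels in a library share its scaling factor.

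Tg replicate 3 had the lowest level of 5 of the 10 genes (Tnf, Relb, Nfkbia, Tnfaip3 and Birc3), and WT replicate 4 the highest of 4 (Nfkb2, Tnfaip3, Birc3 and Cxcl2). WT replicate 4 was also the shallowest library, with 20990446 counts. The summed level of 12 immediate early genes (Fos, Jun, Egr1 and others that rise within minutes of many stimuli) was 7310, 8090, 6010 and 15200 CPM in WT, 9550, 11100 and 12000 in KO, and 15300, 31400, 11300 and 16000 in Tg. WT replicate 4 and Tg replicate 2, each the highest of its genotype in Nfkbia, Tnfaip3 and Cxcl2, were also the highest of their genotype in this sum, while Tg replicate 3 lay within the WT range. Elsewhere the order differed. In WT replicate 1 was the lowest in Nfkbia, Tnfaip3 and Cxcl2, but replicate 3 had the lowest sum. In KO replicate 2 was the highest in these genes, but replicate 3, the lowest in Nfkbia and Cxcl2, was the highest in the sum. Pearson's r between the summed immediate early level and each of the 10 genes ran up to 0.66 (Cxcl2, permutation p = 0.029, adjusted p = 0.17 over 10 relations; rho 0.61, adjusted p = 0.26; r = 0.77 without the 2 farthest), and none passed the adjustment. As deviations from genotype means r was 0.78 for Nfkbia, 0.81 for Tnfaip3 and 0.68 for Cxcl2. It was also 0.67 for Birc3, 0.63 for Relb, and 0.62 for both Tnf and Nfkb2. For Tnfrsf1b it was 0.27, for Tnfrsf1a 0.19 and for Nfkb1 -0.32. Of the 12 immediate early genes all lay above WT in Tg, 6 with an unadjusted p under 0.05, against 22.1% of all genes, and 0 called by edgeR, against 4.92%.

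**Figure D4:**
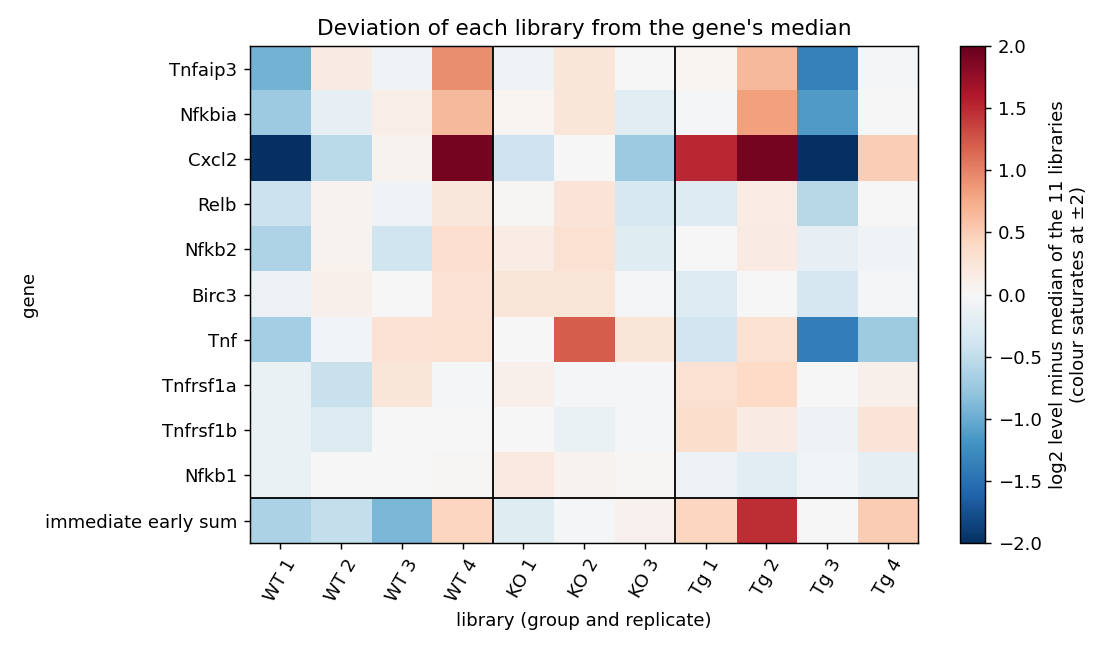
Log2 level of each gene in each library minus that gene's median over the 11 libraries (colour, saturating at ±2), with the summed immediate early genes in the bottom row. Tnfaip3, Nfkbia and Cxcl2 are low in WT 1 and Tg 3 and high in WT 4 and Tg 2, while Nfkb1 stays near its median.

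Among genes averaging 5 CPM or more, predicted models aside, the pattern most like that of Tnfaip3 over the 11 libraries was that of Nfkbia (r = 0.95), then Nfkbid (0.947) and Ccrl2 (0.945). For Nfkbia they were Tnfaip3, Ccrl2 (0.95) and Zc3h12a (0.943), and for Cxcl2 Ccrl2 (0.934), Gadd45b (0.90) and Atp6v1e1 (0.896). Those nearest to Relb were Bbc3 (0.963), Zc3h12a (0.949) and Nfkbid (0.947), and Rel was the third nearest to Tnf (0.935), after Ezr (0.95) and Atxn2l (0.937). Nfkb1 was most like Pip4p1 and Kdm4a (0.938 each), Tnfrsf1a like Sgf29 (0.971), Tnfrsf1b like Cyp39a1 and Cemip2 (0.981 each), Birc3 like Ranbp10 (0.952) and Nfkb2 like Snx11 (0.942). These are the highest of 10299 correlations for each gene and are given as a description.

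The rest of the pathway was read from 103 further genes, of which 98 were tested (Lta, Fasl, Cxcl1, Il1a and Bcl2a1a were too low). In KO against WT edgeR called 0 of 98, against 0.0233% of all genes; 5 (5.1%) had an unadjusted p under 0.05, against 7.08% of all genes. DESeq2 called 1 of the 98, where it called 99 of all genes, and limma-voom 0. The lowest p was that of Tnfrsf9, the co-stimulatory receptor 4-1BB, at 35, 47 and 24 counts in KO and 7, 5, 1 and 1 in WT. Every KO library lay above every WT library, but with a log2 fold change of 3.04 (SE 0.64) the gene missed the threshold (adjusted p = 0.294). Ccl4, a chemokine, had a log2 fold change of 0.88 (SE 0.273), the negative regulator Tnip3 -0.63 (SE 0.235), the ligand Tnfsf13 -0.95 (SE 0.361) and the kinase Tbk1 -0.21 (SE 0.0807), none passing.

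In Tg against WT edgeR called 5 of the 98 lower and 0 higher, where 2.39% of all genes were called lower and 2.54% higher, with a median log2 fold change of -0.06 beside 0.005 over all genes. At an unadjusted p under 0.05 there were 25 (25.5%), against 22.1% of all genes. DESeq2 called 12 (12.2%), against 11.1%, and limma-voom 3 (3.06%), against 3.72%. Nfkbie, which encodes IkB-epsilon, an inhibitor made in response to NF-kB like IkB-alpha, held 33.1, 49.4, 37.7 and 46.1 CPM in WT and 24.3, 26.1, 22.4 and 30.7 in Tg. All Tg libraries lay below all WT libraries, and the fall of Nfkbie, a log2 fold change of -0.68 with an SE of 0.164, passed (adjusted p = 0.0387). The KO libraries, at 43.5, 46.3 and 30.3 CPM, reached down into the Tg range, and Tg against KO was not called (-0.63, SE 0.175, adjusted p = 0.0598).

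The other 4 included 3 genes of the signalling chain to the kinases. Traf6, a ubiquitin ligase used by Toll-like and interleukin-1 receptors, fell by 0.27 (log2) in Tg (SE 0.0626, adjusted p = 0.0342), from 105.5 ± 3.86 to 87.4 ± 4.87 CPM (SD, n = 4 each). Tab2, which links ubiquitin chains to the kinase TAK1, fell by 0.29 (SE 0.0674, adjusted p = 0.0345), from 202.5 ± 12.5 to 165.6 ± 9.87 CPM. Tbk1, an IKK-related kinase that also drives interferon genes, fell by 0.30 (SE 0.0745, adjusted p = 0.0416), from 67.4 ± 4.19 to 54.6 ± 4.35 CPM. For all 3 the Tg libraries lay below every WT library. Cell type markers also differed in this contrast. All 10 B cell markers lay below WT in Tg, 3 of them called, and 10 of 14 macrophage and monocyte markers tested, 4 of them called. Of 11 neutrophil markers tested 8 lay above WT, with 1 called. Over all genes 2.39% were called lower and 2.54% higher. The part of these markers in the values of Nfkbie, Traf6, Tab2 and Tbk1 was not tested.

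Ccl5, a chemokine of T and NK cells, had log2 fold changes of -1.40 between Tg and WT (SE 0.277, adjusted p = 0.0202) and -1.73 between Tg and KO (SE 0.293, adjusted p = 0.0085), a fall, from 2.94 ± 0.896 CPM in WT and 3.69 ± 0.673 in KO to 1.11 ± 0.291 in Tg. The sum of 11 T and NK cell markers was not lower in Tg (129 to 266 CPM, against 98.9 to 125 in WT), but 9 of the 11 lay below WT. Of the 11, 3 were called lower, against 2.39% of all genes, and 1 higher, against 2.54%. Nkg7 held 109.9 to 247.6 CPM in Tg and 52.1 to 88.8 in WT, while Ncr1 of NK cells lay at 0.16 CPM or less in Tg and at 0.44 to 3.29 in WT. Their part in the Ccl5 value was not tested.

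All 5 calls in Tg against WT were sensitive to single libraries. Leaving out 1 of the 11 ended the call of Traf6 and Tbk1 for 9 libraries each, of Tab2 and Nfkbie for 7 each and of Ccl5 for 4, and in each case the adjusted p was highest without Tg replicate 1 (0.0967, 0.128, 0.111, 0.117 and 0.0704 in that order). No call was left among the 98 genes without WT replicate 2, Tg replicate 1 or Tg replicate 2, and 1 was left without WT replicate 1, KO replicate 1 or KO replicate 2. There were 2 without KO replicate 3 and 8 without WT replicate 3. Without the 5 libraries holding Xist and Y-linked reads 0 were called, and the log2 fold changes were -0.53 for Nfkbie, -0.30 for Traf6, -0.27 for Tab2, -0.19 for Tbk1 and -0.76 for Ccl5 (adjusted p from 0.466 to 0.758).

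In Tg against KO edgeR called 4 of the 98 lower and 1 higher, beside 3.06% lower and 2.63% higher over all genes. At an unadjusted p under 0.05 there were 26 (26.5%), against 21.6% of all genes. DESeq2 called 12 (12.2%), against 11.2%, and limma-voom 5 (5.1%), against 4.91%. Besides Ccl5, the lower ones included Tnfrsf9 (-3.61, SE 0.656, adjusted p = 0.0117), at 0.0270 to 0.125 CPM in Tg and 0.765 to 1.41 in KO. The others were Tnfrsf13b (-0.29, SE 0.0619, adjusted p = 0.023) and Tnfrsf13c (-0.93, SE 0.227, adjusted p = 0.0389), which encode TNF family receptors of B cells. Tnfrsf13b held 65.9, 65.0 and 65.3 CPM in KO and 51.1, 54.5, 55.1 and 53.3 in Tg, and Tnfrsf13c 6.06, 7.74 and 6.77 in KO and 2.93, 3.26, 4.50 and 3.75 in Tg. All 10 B cell markers were also below KO in Tg, 5 of them called, against 3.06% of all genes called lower, and their part in these values was not tested. The ligand gene Tnfsf13 was higher, at 1.84 to 3.26 CPM in Tg and 0.503 to 0.939 in KO (log2 fold change 1.70, SE 0.365, adjusted p = 0.0237).

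These calls also depended on single libraries. Leaving out 1 ended the call of Tnfrsf13c for 6 libraries (highest adjusted p 0.147, lacking KO replicate 2), of Tnfsf13 for 5 (0.0969, without KO replicate 1), of Tnfrsf13b for 4 (0.0943, without KO replicate 2) and of Tnfrsf9 for 1 (0.0629, without KO replicate 2). That of Ccl5 remained in all 11 fits, with an adjusted p of at most 0.0424. The number of calls was 1 without KO replicate 2, 2 without KO replicate 1 or Tg replicate 1, and 3 without Tg replicate 2. It was 0 without the 5 libraries holding Xist and Y-linked reads, where the lowest adjusted p was 0.142, for Ccl5.

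In Tg against WT, 0 of 16 other TNF family receptors were called. At an unadjusted p under 0.05 there were 5, of which 2 were higher in Tg and 3 lower. The higher ones were Ltbr, the lymphotoxin receptor, at a log2 fold change of 0.54 (SE 0.148, adjusted p = 0.0617) and Tnfrsf21, a death receptor, at 0.44 (SE 0.128, adjusted p = 0.0719). The lower ones included Tnfrsf13c, with the lowest p of the 16, at -0.81 (SE 0.214, adjusted p = 0.0523). Tnfrsf13b was also lower, at -0.17 (SE 0.0577, adjusted p = 0.117). Of 25 other NF-kB target genes 1 (Ccl5) was called, and 14 lay below WT. Of 13 other negative regulators 0 were called, with 3 at an unadjusted p under 0.05. Over all genes tested in this contrast, edgeR called 4.92%, and 22.1% had an unadjusted p under 0.05. Rel and Rela, the remaining NF-kB subunits, had log2 fold changes of -0.27 (SE 0.136) and -0.09 (SE 0.117).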

How the data were processed

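The table the authors deposited holds unnormalised counts of reads, by gene symbol, for 11 libraries. Tools named in the submitters' processing notes are FastQC, Trimmomatic, STAR and HTSeq, with mm10 as the build. Versions, annotation and strand setting were not given in the sources used here. A single fit of all libraries in edgeR 4.0.16 (R 4.3.3) used TMM scaling and no covariate, and filterByExpr by group left 17183 genes. Contrasts used edgeR's quasi-likelihood test with Benjamini-Hochberg adjustment over all genes and a threshold of 0.05. Log2 levels used a prior count of 2, and correlations were tested with two-sided permutation tests of 100000 resamples. Coordinates and exon lengths come from GENCODE M21 (GRCm38) and promoters from RefSeq (GRCm38.p6). The p-values of the contrasts set differences between groups against the spread between these libraries. Those of the correlations rest on shuffles of all 11 libraries without regard to genotype. A level of 3 counts corresponds to 0.0656 to 0.144 CPM.

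Members and gene lists were chosen with earlier results of these data known. Named genes are the 10 members, Phf6, pathway genes called in a contrast (the 5 with the lowest p where fewer than 5 were called) and the genes most like each member. Ltbr, Tnfrsf21, Rel, Rela and single marker genes were chosen after their values were seen. Alternatives were DESeq2 1.42.0, limma-voom (limma 3.58.1), other scaling factors and filters, the groups compared alone, the replicate number as a block, a Y-linked covariate, robust empirical Bayes and each library left out. Omitting the 5 libraries that hold Xist and Y-linked reads was chosen after seeing the data. The fit was tested on simulated data.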

Additional observations from a re-analysis of the deposited data

Results flagged for a closer look

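The level of Nfkb1 in WT replicate 1, 244 CPM, stood apart from the other 3 WT libraries, which lay between 266.8 and 270.5 CPM. The gap took 0.864 of the range of the group, above Dixon's 95% critical value. It was the only such value among 20 sets of 4 libraries examined, and chance gives about 1 in 20.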

How the results depend on the processing

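Under 22 alternatives, 614 of 660 log2 fold changes of the 10 genes kept their direction and side of the threshold, 44 changed sign (0 of them past the threshold) and 2 newly passed. The cause was not tested. Sign changes under limma-voom were, for KO against WT, Nfkbia 0.064, Tnfaip3 0.035 and Cxcl2 0.26, and for Nfkbia -0.043 in Tg against WT and -0.11 in Tg against KO. Upper quartile factors gave Nfkbia -0.02 in Tg against WT, and the Y-linked covariate gave Tnfaip3 0.24 in Tg against KO. Without the libraries holding Xist and Y-linked reads, KO against WT was Tnfrsf1a -0.27, Tnfrsf1b -0.035, Tnf -0.041, Relb -0.25, Tnfaip3 0.095 and Birc3 -0.02. In the same fit Tg against WT was Tnfrsf1a -0.022, Nfkbia -0.056 and Tnfaip3 0.077, and Tg against KO was Nfkb2 0.22 and Relb 0.19.

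The replicate number as a block gave Nfkbia 0.11 and Tnfaip3 0.16 in KO against WT, and Nfkbia -0.043 in Tg against WT and -0.15 in Tg against KO. With the block 1 pathway gene was called in Tg against WT and 1 in Tg against KO. Correlations of the deviations ran from -0.245 to 0.096 in 10 same-numbered pairs and from -0.344 to 0.308 in differently numbered pairs. The labels do not say whether libraries of 1 number share a batch, and these values cannot decide it.

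DESeq2 called 1 member in Tg against KO and 1, 12 and 12 pathway genes in KO against WT, Tg against WT and Tg against KO. For Tg against WT, limma-voom called 3 pathway genes, the Y-linked covariate 11 and the fit of the groups compared alone 1. Without the libraries holding Xist and Y-linked reads, 0 were called in Tg against WT and 0 in Tg against KO.

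With each library left out in turn, the values that changed sign had these ranges. In KO against WT they were Cxcl2 from -1.24 to 0.36, Nfkbia from -0.21 to 0.25, Relb from -0.10 to 0.17, Tnfaip3 from -0.36 to 0.27, Tnfrsf1a from -0.015 to 0.20 and Tnfrsf1b from -0.016 to 0.078. In Tg against WT they were Nfkb2 from -0.055 to 0.27, Nfkbia from -0.35 to 0.28, Relb from -0.23 to 0.007 and Tnfaip3 from -0.49 to 0.20. In Tg against KO they were Nfkb2 from -0.25 to 0.01, Nfkbia from -0.34 to 0.28 and Tnfaip3 from -0.38 to 0.19. Calls then ranged from 0 to 1 among the 10 genes in Tg against WT, and among pathway genes from 0 to 8 in Tg against WT and from 1 to 6 in Tg against KO.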
